A study of Mus musculus with 2 samples.

Results

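The genes described here are 10 receptors and ligands through which phagocytes recognise dying cells, lipoproteins and protein aggregates: *Mertk*, *Axl*, *Gas6*, *Pros1*, *Colec12*, *Msr1*, *Cd36*, *Stab1*, *Cd300lf* and *Lrp1*. They were taken by symbol from the 32285 genes of a single-cell count table, and all 10 have a row in it. Each was followed by cell state, with cells gated on raw counts of marker genes that include none of the 10, and by library. The table holds microglia of PSAPP mice, which carry the APPswe and PS1 delta E9 transgenes and deposit amyloid plaques. One library (VEH) came from mice given vehicle and the other (LEM) from mice given lemborexant, an antagonist of both orexin receptors, given by gavage once a day for 30 days (30 mg/kg/day), from 9 to 10 months of age. Both libraries were made alike from live CD45lo CD11b+ cells sorted from cortex and hippocampus, and each is a single pool of the cells of 5 mice, females and males together.

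MERTK and AXL are TAM receptors, a family of receptor tyrosine kinases. They do not touch phosphatidylserine themselves. The secreted proteins GAS6 and protein S (*Pros1*) bind the lipid on the outer face of dying cells and bridge it to the receptor. Scavenger receptors such as CD36, MSR1, stabilin-1 (*Stab1*) and the collectin COLEC12 bind modified lipoproteins, sugars and aggregates directly. CD300LF is an immunoreceptor that binds phospholipids, and LRP1 is a large endocytic receptor for apolipoprotein E and many other ligands. In brains with plaques, microglia that gather at amyloid take on a disease-associated (DAM) state with genes such as *Cst7*, *Lpl* and *Itgax*.

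Each treatment has 1 library and hence no replicate, and neither a test nor a p-value is given. A level is the summed count of a gene per 1000000 counts of the same cells (CPM), and a difference is a log2 ratio of CPM. Ranges in parentheses are exact 95% intervals that cover counting error only, so what separates VEH from LEM here separates 2 pools of mice. In a pool, fewer RNA molecules per cell and fewer cells of a type cannot be told apart except within a gated state. The VEH library held 18374 cells and 116229678 counts (median 5971 per cell), and the LEM library 24392 cells and 160752298 counts (median 6034). Cell names carry no barcodes, so barcodes shared by the libraries could not be counted. Female cells (*Xist* without Y-linked counts) numbered 5686 and 8409 and male cells 9025 and 11223, and within a pool these are separate mice that had the same treatment. The 6 microglial markers were each found in 98.4% to 99.9% of cells, as the label microglia requires. Choroid plexus markers summed to 440 CPM in VEH and 1328 CPM in LEM, with 7 of 7 genes above 0 and each in at most 0.849% and 1.22% of cells.

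Cells were gated as homeostatic (16491 in VEH and 21435 in LEM), intermediate (808 and 1220), DAM (361 and 461), MHC class II high (83 and 63), interferon (372 and 723), cycling (151 and 223), border-associated macrophage or BAM (22 and 66) and choroid plexus (49 and 146). DAM-gated cells have counts of at least 4 of 7 DAM genes, intermediate cells of 2 or 3 and homeostatic cells of 0 or 1. Such a gate favours deep cells: the median count per cell was 11782 and 12396 in DAM-gated cells against 5811 and 5851 in homeostatic ones. Levels are therefore compared as CPM, and the share of cells in which a gene was counted is repeated after thinning each cell to 2000 counts, which left out 7.10% and 4.98% of cells. Droplets gated as choroid plexus, with median depths of 9338 and 8109, serve as a measure of free RNA. *Mertk* was counted in 73.5% and 63.0% of them, and the source of that RNA was not tested. These droplets may therefore overstate free RNA.

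The promoters of 4 genes are shown because 2 of them, *Mertk* and *Stab1*, were lower in DAM-gated cells, *Axl* was higher there, and *Cd300lf* was higher in the LEM library. Each run has the 250 bases before the RefSeq start of the gene and its first 10 bases, 5′ to 3′ on the strand of the gene, from build GRCm38.p6. Capitals mark GAGGAA or its complement TTCCTC, the core bound by the myeloid factor PU.1.

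Mertk, chr2:128698665-128698924, plus strand: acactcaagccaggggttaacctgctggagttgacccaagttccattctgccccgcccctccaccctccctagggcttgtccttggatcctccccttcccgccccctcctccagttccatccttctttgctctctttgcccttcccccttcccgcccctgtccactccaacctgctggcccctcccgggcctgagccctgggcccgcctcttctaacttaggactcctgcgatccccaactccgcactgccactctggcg

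Axl, chr7:25788724-25788983, minus strand: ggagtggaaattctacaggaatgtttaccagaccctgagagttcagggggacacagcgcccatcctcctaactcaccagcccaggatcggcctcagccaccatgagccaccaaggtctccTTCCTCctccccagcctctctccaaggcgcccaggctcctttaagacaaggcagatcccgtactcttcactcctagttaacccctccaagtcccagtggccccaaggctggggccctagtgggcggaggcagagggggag

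Cd300lf, chr11:115133983-115134242, minus strand: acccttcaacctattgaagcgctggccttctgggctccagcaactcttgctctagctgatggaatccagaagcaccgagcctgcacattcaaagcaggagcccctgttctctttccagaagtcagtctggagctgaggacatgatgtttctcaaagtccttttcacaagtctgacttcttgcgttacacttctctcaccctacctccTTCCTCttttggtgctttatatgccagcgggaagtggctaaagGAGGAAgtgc

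Stab1, chr14:31168632-31168891, minus strand: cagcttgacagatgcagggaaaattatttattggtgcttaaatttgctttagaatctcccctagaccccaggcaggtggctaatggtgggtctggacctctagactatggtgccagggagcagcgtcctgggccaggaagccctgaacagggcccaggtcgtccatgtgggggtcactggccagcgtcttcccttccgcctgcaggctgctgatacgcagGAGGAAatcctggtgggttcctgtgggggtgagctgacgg

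The *Cd300lf* promoter has the PU.1 letters at its first transcribed base and, on the other strand, from base -43. *Stab1* has them from base -30, *Axl* on the other strand from base -130, and *Mertk* has none. RefSeq promoters of 300 bases, which reach 50 bases past the start, were at hand for 8 of the 10 genes, and 3 of the 8 hold these letters. Of all 32851 such promoters, 28.3% do. None of the 8 holds TGANTCA (AP-1, in 7.81% of promoters), CACGTG (the E-box, 7.15%) or the interferon-stimulated response element (3.44%), on either strand, and no motif overlapped another. A match describes letters in this window and nothing about binding.

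**Figure D1:**
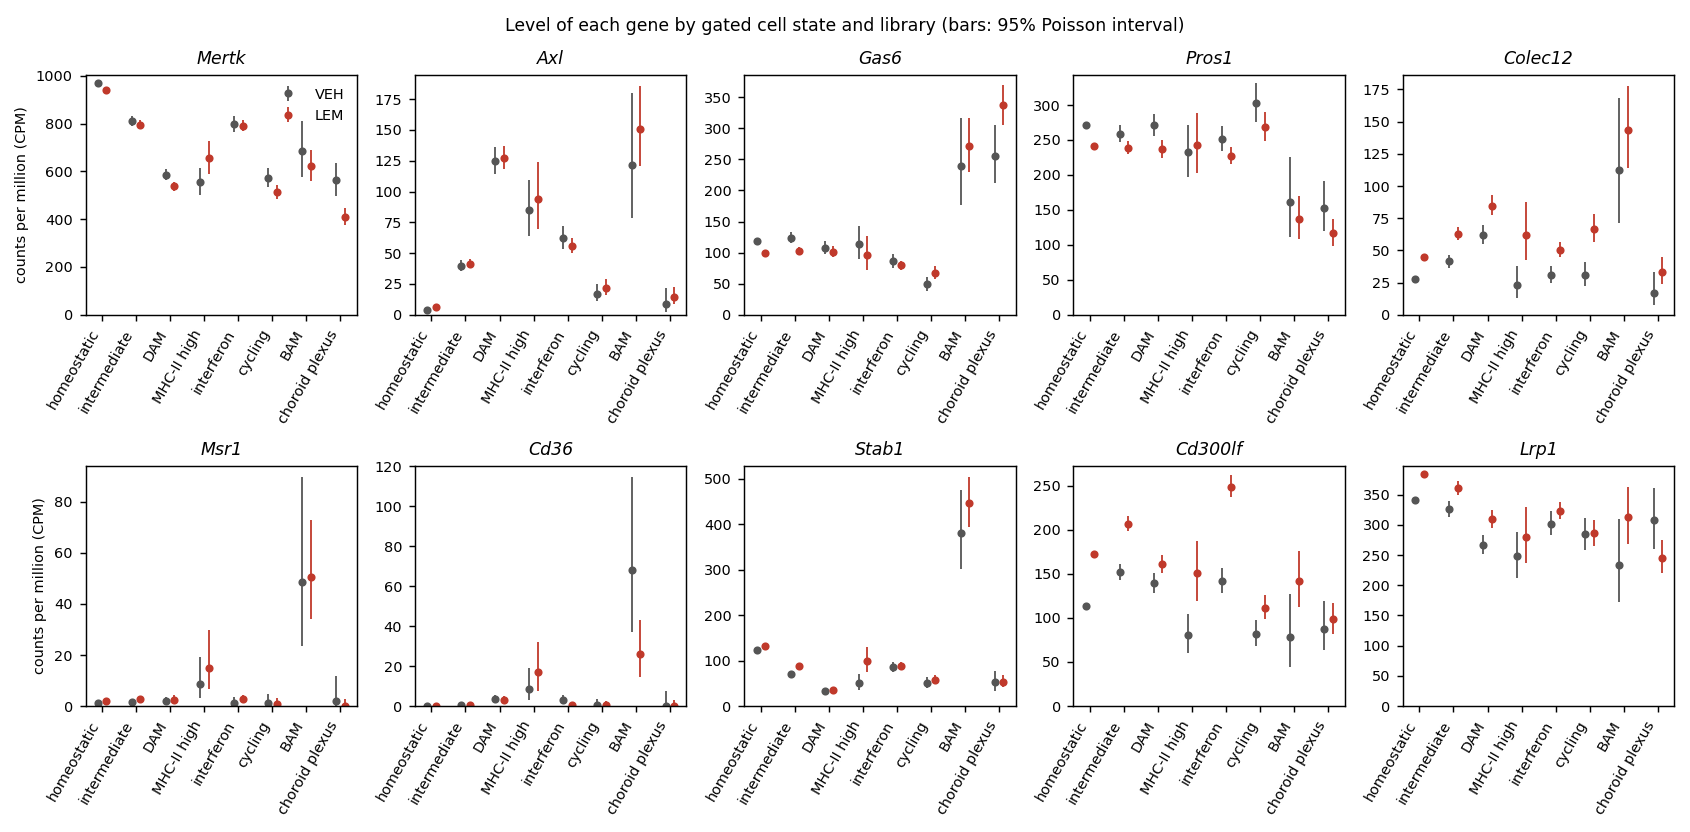
Level (CPM, linear axis from 0) of each gene in 8 gated states of the VEH and LEM libraries, with 95% Poisson intervals. Axl was 125 and 127 CPM in DAM-gated cells against 4.12 and 6.68 CPM in homeostatic ones, while Mertk and Stab1 were lower there and Msr1, Cd36 and Stab1 had their highest levels in BAM-gated cells.

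The TAM receptors ran in opposite directions across the states. *Mertk* (chr2:128698956-128802894, plus strand, mm10) was at 970 CPM in homeostatic cells of VEH and 943 CPM in those of LEM, 812 and 796 CPM in intermediate cells and 585 and 537 CPM in DAM-gated cells. *Axl* (chr7:25757273-25788705, minus strand) was at 4.12 and 6.68 CPM in homeostatic cells, 39.8 and 41.4 CPM in intermediate cells and 125 and 127 CPM in DAM-gated cells. DAM-gated over homeostatic cells gave log2 ratios for *Axl* of 4.92 (4.73 to 5.11) in VEH and 4.25 (4.11 to 4.40) in LEM. For *Mertk* they were -0.73 (-0.79 to -0.67) and -0.81 (-0.86 to -0.76). Both directions were present in each of the 4 sex and library groups, where *Axl* lay between 4.24 and 5.10 and *Mertk* between -0.89 and -0.72. No interval of the 4 groups reached 0. The median of this ratio over 8797 genes was -0.28 in each library. *Mertk* was number 7746 of them from the highest in VEH and 8019 in LEM.

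*Axl* was counted in 63.2% (58.0 to 68.1) of DAM-gated cells in VEH and 63.8% (59.2 to 68.2) in LEM, or 24.9% and 22.4% after thinning. In homeostatic cells the shares were 2.10% and 3.45%, and in the deeper choroid plexus-gated droplets 6.12% (1.28 to 16.9) and 7.53% (3.82 to 13.1). The level of these droplets was 8.36 (2.28 to 21.4) and 14.6 (8.82 to 22.9) CPM, from 4 and 19 *Axl* counts. After thinning, *Axl* was counted in 0.944% and 1.29% of homeostatic cells and in 0 of 47 and 1 of 139 droplets, and 0 of 47 allows a share of up to 6.38%, so no order is read from these shares. In homeostatic cells the LEM over VEH ratio was 0.70 (0.53 to 0.87), at 0.73 for females and 0.69 for males, and the part of free RNA in this level and ratio was not tested. In intermediate cells the LEM over VEH ratio of *Axl* was 0.06 (-0.16 to 0.28) and in DAM-gated cells 0.03 (-0.14 to 0.19), and both intervals include 0. Among the other gated states *Axl* was highest in BAM-gated cells (122 and 150 CPM), MHC class II high cells (84.7 and 94.1 CPM) and interferon-gated cells (62.4 and 56.1 CPM), and cycling cells had 17.0 and 22.0 CPM. The 36 and 55 ungated cells held 10 and 0 *Axl* counts.

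**Figure D2:**
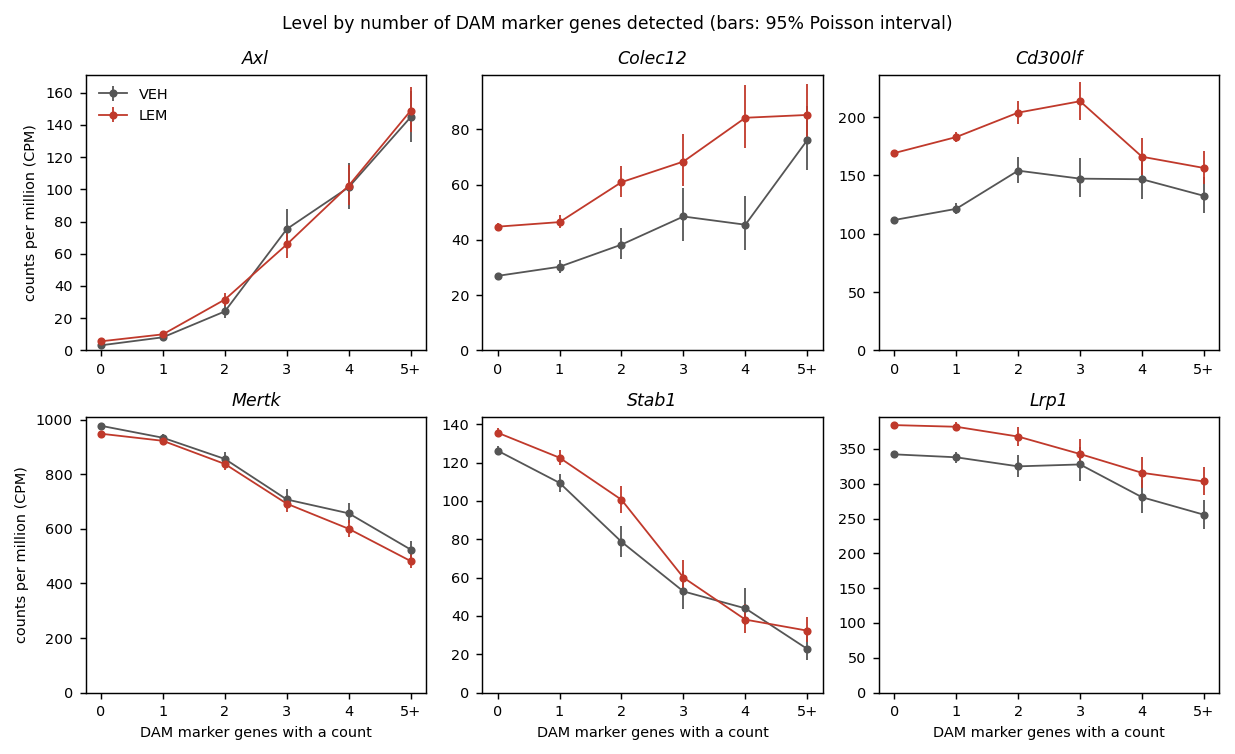
Level (CPM, linear axis from 0) of 6 genes against the number of DAM marker genes with a count in the cell, with 95% Poisson intervals, for VEH and LEM. Axl climbs from 3.12 and 5.61 CPM in cells with 0 DAM genes to 145 and 149 CPM in cells with 5 or more, while Mertk and Stab1 descend.

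Counted by the number of DAM genes in a cell, the 2 receptors changed in steps. *Axl* was at 3.12 CPM in VEH cells with 0 DAM genes, 8.11 with 1, 24.2 with 2, 75.3 with 3, 101 with 4 and 145 CPM with 5 or more. The LEM series was 5.61, 9.94, 31.5, 65.8, 102 and 149 CPM, and from 1 DAM gene on the intervals of the libraries overlapped at each step. *Mertk* went from 978 to 524 CPM in VEH and from 949 to 482 CPM in LEM over the same steps. Whether *Axl* and *Mertk* were counted in the same cells was read after thinning. Among DAM-gated cells with an *Axl* count, *Mertk* was counted in 64.0% (53.2 to 73.9) in VEH and 49.5% (39.5 to 59.5) in LEM, and without an *Axl* count in 61.0% (54.9 to 66.8) and 61.3% (56.1 to 66.4), with overlapping intervals in each library. *Mertk* was also low in cycling cells, at 573 and 512 CPM. Over all cells the LEM over VEH ratio of *Mertk* was -0.05 (-0.06 to -0.04), and it was -0.09 in female and -0.02 in male cells.

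The TAM ligands were at similar levels in homeostatic, intermediate and DAM-gated cells, and *Gas6* was lower in interferon-gated and cycling cells. *Gas6* (chr8:13465374-13494490, minus strand) was at 119 and 99.8 CPM in homeostatic cells, 124 and 102 CPM in intermediate cells, 108 and 102 CPM in DAM-gated cells, 86.0 and 79.3 CPM in interferon-gated cells and 49.0 and 67.8 CPM in cycling cells. Its ratio over homeostatic cells was -1.28 (-1.62 to -0.95) and -0.56 (-0.79 to -0.33) in cycling cells and -0.46 (-0.65 to -0.29) and -0.33 (-0.46 to -0.20) in interferon-gated cells. Its highest levels were outside microglia, at 239 and 271 CPM in BAM-gated cells and 255 and 337 CPM in choroid plexus-gated droplets. *Pros1* (chr16:62854307-62929346, plus strand) was at 271 and 242 CPM in homeostatic cells, 272 and 237 CPM in DAM-gated cells and 303 and 268 CPM in cycling cells, and lower in BAM-gated cells, at 161 and 136 CPM. The log2 ratio of DAM-gated over homeostatic cells was 0.00 (-0.09 to 0.09) and -0.03 (-0.11 to 0.05) for *Pros1*. For *Gas6* it was -0.14 (-0.27 to -0.00) and 0.02 (-0.10 to 0.15). The median over 8797 genes was -0.28 in each library, so both ligands lay above it. From the highest, *Pros1* was number 2263 in VEH and 2473 in LEM, and *Gas6* number 3164 and 2156. A cell with one ligand had the other about as often as a cell without it: among thinned homeostatic cells with *Gas6*, 39.5% and 36.2% had *Pros1*, against 40.1% and 36.7% of those without.

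Both ligands were lower in LEM than in VEH over all cells. For *Pros1* the log2 ratio was -0.17 (-0.19 to -0.15), and its parts were alike, at -0.20 for female cells, -0.14 for male cells, -0.17 in homeostatic cells and -0.20 in DAM-gated cells. For *Gas6* it was -0.22 (-0.25 to -0.18) over all cells and -0.55 (-0.61 to -0.49) among females, but only -0.02 (-0.07 to 0.02) among males. By state the *Gas6* ratio was -0.25 (-0.29 to -0.21) in homeostatic and -0.28 (-0.41 to -0.14) in intermediate cells. It was -0.09 (-0.27 to 0.09) in DAM-gated cells, and above 0 in cycling cells, at 0.47 (0.06 to 0.88). In MHC class II high and interferon-gated cells its interval included 0. Female cells of VEH held 134 CPM of *Gas6* and the other 3 groups 91.9 to 108 CPM. Within VEH the female over male ratio was 0.31 (0.26 to 0.37) and within LEM -0.21 (-0.26 to -0.16). The library ratios to set beside them are -0.22 over all cells and -0.55 among females. Choroid plexus markers, whose droplets carried more *Gas6* than microglia, were higher in LEM, and their part in the *Gas6* ratio was not tested.

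Of the scavenger receptors, *Colec12* was the one with substantial counts that was higher in DAM-gated cells. It was at 27.6 CPM in homeostatic cells of VEH and 45.2 CPM in those of LEM, 41.4 and 63.0 CPM in intermediate cells and 62.1 and 84.7 CPM in DAM-gated cells, with 112 and 143 CPM in BAM-gated cells. Interferon-gated cells had 30.7 and 50.7 CPM and cycling cells 30.7 and 66.9 CPM. DAM-gated over homeostatic ratios were 1.17 (0.98 to 1.35) in VEH and 0.91 (0.77 to 1.04) in LEM, and 0.95 to 1.54 in the 4 sex and library groups. In choroid plexus-gated droplets it was at 16.7 (7.22 to 32.9) and 33.1 (24.0 to 44.6) CPM. After thinning it was counted in 10.3% and 15.4% of DAM-gated cells and 4.94% and 8.01% of homeostatic cells. *Itgax*, which encodes CD11c, marks cells that the study followed. Cells with at least 2 *Itgax* counts had 63.6 CPM of *Colec12* in VEH and 68.3 CPM in LEM, against 27.4 and 46.9 CPM in cells with 0. *Itgax* is one of the DAM gate genes, and without DAM-gated cells the *Colec12* levels were 49.5 and 59.2 CPM against 27.3 and 46.6 CPM.

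**Figure D3:**
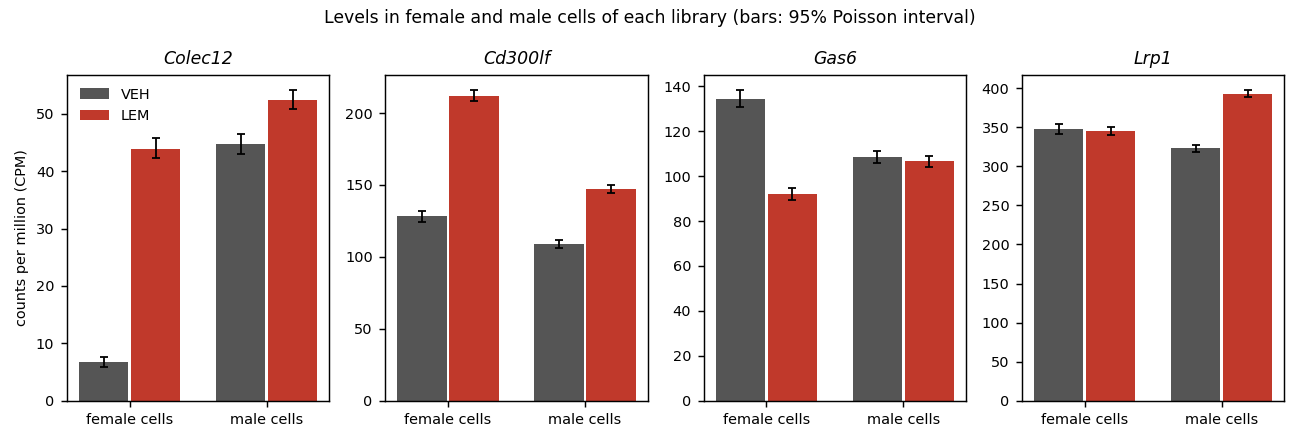
Level (CPM, bars from 0) of Colec12, Cd300lf, Gas6 and Lrp1 in female and male cells of the VEH and LEM libraries, with 95% Poisson intervals. Colec12 was 6.76 CPM in female VEH cells and 43.9 to 52.4 CPM in the other 3 groups.

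The libraries differed in *Colec12* far more in female than in male cells. Over all cells it was at 29.9 CPM in VEH and 48.6 CPM in LEM, a log2 ratio of 0.70 (0.64 to 0.76). Female cells of VEH held 6.76 CPM (5.95 to 7.66) and male cells of the same library 44.7 CPM (43.0 to 46.4). In LEM the female cells held 43.9 CPM and the male cells 52.4 CPM. The one low value was that of the female VEH cells, and the other 3 groups lay close together. The LEM over VEH ratio was 2.70 (2.51 to 2.89) among female cells, beside 0.23 (0.16 to 0.30) among the males. Within VEH the female over male ratio of *Colec12* was -2.72 (-2.92 to -2.53), and of 7521 genes, sex-call genes left out, only 4 others were as far from 0. Within LEM it was -0.26 (-0.33 to -0.18), with 435 others as far.

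The female VEH cells were low in *Colec12* in each state. They held 5.36 CPM in homeostatic cells, 22.1 CPM in intermediate cells and 15.6 CPM in DAM-gated cells, against 41.4, 62.0 and 100 CPM in the male cells of that library. The homeostatic level was under that of VEH choroid plexus-gated droplets with the sexes pooled, which held 8 *Colec12* counts. Only 1 of the 8 was in female droplets, too few to set female cells beside female droplets. After thinning, 1.41% of female and 7.47% of male VEH cells had a count, with near equal median depths of 6156.5 and 6106. In male cells the LEM over VEH ratio of *Colec12* was 0.25 (0.17 to 0.33) in homeostatic cells, -0.02 (-0.30 to 0.26) in intermediate cells and -0.06 (-0.34 to 0.22) in DAM-gated cells. It was 0.89 (0.44 to 1.36) in male interferon-gated cells, 0.16 (-0.39 to 0.71) in cycling cells and 1.14 (-0.66 to 2.99) in MHC class II high cells. In DAM-gated cells the female ratio was 2.35 (1.69 to 3.08). The DAM-gated over homeostatic ratio of *Colec12* in female VEH cells was 1.54 (0.81 to 2.20), from 21 counts, beside 1.27 (1.06 to 1.48) in their male counterparts. Cells cannot be assigned to single mice, so how many mice carry the low value cannot be told.

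*Stab1* (chr14:31139013-31168641, minus strand) had the reverse profile. It was at 123 and 132 CPM in homeostatic cells, 70.8 and 88.9 CPM in intermediate cells and 32.5 and 35.0 CPM in DAM-gated cells. The DAM-gated over homeostatic ratios were -1.92 (-2.17 to -1.68) and -1.92 (-2.13 to -1.72), and -2.43 to -1.75 in the 4 sex and library groups. Among 8797 genes tested for this contrast *Stab1* was number 8752 from the highest in VEH and 8762 in LEM. Choroid plexus-gated droplets were at 52.3 (33.8 to 77.1) and 53.9 (42.1 to 68.2) CPM. BAM-gated cells, which are macrophages of the brain's borders, had 380 (301 to 475) and 446 (393 to 504) CPM. Of the cells with a *Stab1* count 91.9% and 89.5% were homeostatic microglia, which made up 89.8% and 87.9% of all cells. The LEM over VEH ratio was 0.11 (0.08 to 0.14), at 0.12 for females and 0.10 for males.

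*Msr1* and *Cd36* were close to absent from these microglia. *Msr1* (chr8:39581685-39642673, minus strand) had 176 counts in VEH and 375 in LEM, in 0.860% and 1.41% of cells, and *Cd36* (chr5:17781690-17888801, minus strand) had 61 and 73 counts, in 0.223% and 0.230% of cells. BAM-gated cells were 0.120% and 0.271% of the libraries but held 14 of 61 and 15 of 73 *Cd36* counts, at 68.2 (37.3 to 115) and 26.2 (14.7 to 43.3) CPM. DAM-gated cells held 14 and 17 *Cd36* counts, at 3.32 and 3.03 CPM, against 0.141 and 0.135 CPM in homeostatic cells, with 0 counts in choroid plexus-gated droplets. These counts sat in 7 of 361 and 14 of 461 DAM-gated cells, and after thinning 0.279% and 0.217% of them had one. The DAM-gated over homeostatic ratio of *Cd36*, which rests on these few cells, was 4.56 (3.38 to 5.73) and 4.49 (3.44 to 5.53). MHC class II high cells had higher *Cd36* levels than DAM-gated cells, at 8.76 (3.21 to 19.1) and 16.9 (7.75 to 32.2) CPM, from 6 and 9 counts. Interferon-gated cells held 9 and 2 *Cd36* counts, at 3.04 and 0.322 CPM. *Msr1* was at 48.7 and 50.7 CPM in BAM-gated cells, 8.76 and 15.1 CPM in MHC class II high cells and 1.35 and 2.08 CPM in homeostatic cells. The BAM-gated counts were 10 and 29. BAM marker genes summed to 8.33 CPM in VEH and 11.4 CPM in LEM, with 7 of 7 above 0. The *Msr1* ratio of LEM over VEH was 0.62 (0.36 to 0.89) over all cells and 0.62 (0.32 to 0.93) in homeostatic cells. The parts of BAM cells and of free RNA in these ratios were not tested.

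*Cd300lf* (chr11:115116214-115133992, minus strand) differed between libraries and between states. It was at 114 CPM in homeostatic cells of VEH and 173 CPM in those of LEM, 152 and 207 CPM in intermediate cells, 139 and 161 CPM in DAM-gated cells, 142 and 249 CPM in interferon-gated cells, 80.3 and 151 CPM in MHC class II high cells and 82.3 and 112 CPM in cycling cells. Cycling over homeostatic cells gave -0.47 (-0.73 to -0.21) and -0.63 (-0.81 to -0.45), and interferon-gated over homeostatic cells 0.32 (0.18 to 0.46) and 0.53 (0.45 to 0.60). The LEM level was above the VEH level in each of these states. The LEM over VEH ratio was 0.60 (0.57 to 0.63) in homeostatic, 0.44 (0.34 to 0.55) in intermediate, 0.21 (0.06 to 0.36) in DAM-gated and 0.81 (0.65 to 0.97) in interferon-gated cells. For females it was 0.73 and for males 0.43. Within the DAM gate the female ratio was 0.52 (0.27 to 0.77) and the male ratio -0.07 (-0.31 to 0.17). DAM-gated over homeostatic cells gave 0.29 (0.17 to 0.41) in VEH but -0.10 (-0.20 to -0.01) in LEM. Across DAM gene numbers *Cd300lf* peaked in between in LEM. It went there from 169 CPM with 0 DAM genes to 214 (198 to 231) CPM with 3 and 156 (143 to 171) CPM with 5 or more. In VEH it went from 112 to 154 (143 to 166) CPM with 2 and 133 (118 to 148) CPM with 5 or more, and the intervals of these last steps overlap. Within a library the female over male ratio was 0.23 (0.18 to 0.29) in VEH, where 715 other genes were as far from 0. In LEM it was 0.53 (0.49 to 0.56), with 89 others as far.

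*Lrp1* (chr10:127538161-127621148, minus strand) was at 341 and 384 CPM in homeostatic cells, 326 and 361 CPM in intermediate cells and 267 and 309 CPM in DAM-gated cells. The DAM-gated over homeostatic ratio was -0.35 (-0.44 to -0.27) in VEH and -0.31 (-0.38 to -0.24) in LEM, and below 0 in each of the 4 sex and library groups. These values are near the median of -0.28 over 8797 genes in each library. *Lrp1* was number 5122 of them from the highest in VEH and 4693 in LEM. Over all cells the LEM over VEH ratio was 0.16 (0.14 to 0.18). It was 0.28 in male cells and -0.01 in female cells, with 393 CPM in male LEM cells and 323 to 347 CPM in the other 3 groups. The male LEM cells stood apart from the rest.

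**Figure D4:**
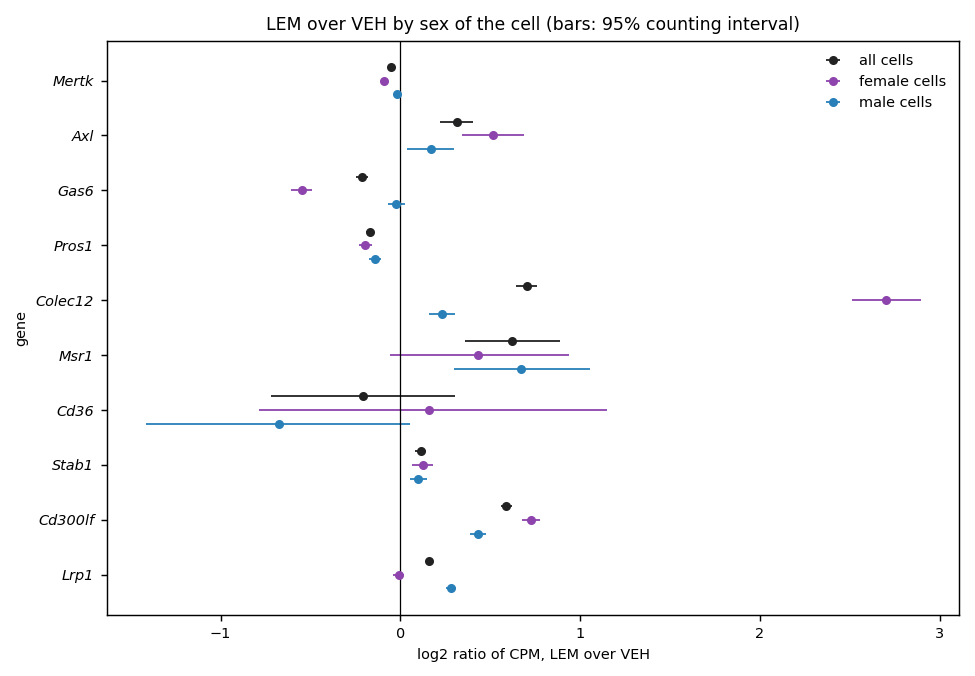
Log2 ratio of CPM, LEM over VEH, of each gene in all, female and male cells, with 95% counting intervals and a line at 0. Cd300lf, Stab1, Axl and Colec12 lie above 0 in both sexes, as does Msr1 in male cells, while its interval in female cells is -0.06 to 0.94. Colec12 is at 2.70 in female and 0.23 in male cells, and Gas6 and Lrp1 lie near 0 in one sex.

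Set against all genes, only the better detected of the 10 could be counted. Of the 10, 7 were counted in at least 10% of cells of a library, and *Axl*, *Msr1* and *Cd36* were not. With a log2 size of 0.1, the size the methods of the study use, 4 of the 7 were higher in LEM (*Colec12*, *Cd300lf*, *Stab1* and *Lrp1*), where 14.1% of all 7526 such genes were, and 2 were lower (*Gas6* and *Pros1*), where 9.86% were. Past that size in both sexes, 3 of 7 were higher (*Colec12*, *Cd300lf* and *Stab1*, beside 6.23% of all) and 1 was lower (*Pros1*, beside 4.36%). *Stab1* was barely past it in male cells, at 0.101 (0.055 to 0.146). With both sexes together, *Colec12* and *Cd300lf* were higher in each of the 6 microglial states, as were 1.51% of all genes. In male cells alone *Colec12* was at -0.02 in intermediate and -0.06 in DAM-gated cells, and *Cd300lf* at -0.07 in DAM-gated cells. The ratio of LEM over VEH was further from 0 than the female over male ratio of both libraries for 3 of 7 (*Mertk*, *Cd300lf* and *Stab1*), and for 24.3% of all genes. The median LEM over VEH ratio was 0.11 over the 7 and 0.01 over the 7526 genes. The study had already reported *Colec12* and *Cd300lf* as higher with lemborexant in these same libraries. Counts and medians that include them were thus partly set in advance, and nothing is read from them about the genes as a group. *Colec12* was number 18 from the highest and *Cd300lf* number 28 in all cells, but in male cells alone they were number 335 and 90.

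For DAM-gated over homeostatic cells 8 of the 10 passed the detection minimum in a state. *Axl* passed it only through states where it is high, so it is left out of the count. Of the other 7, past a log2 size of 0.5 in both libraries, 1 was higher (*Colec12*), beside 7.85% of 8797 genes, and 2 were lower (*Mertk* and *Stab1*), beside 19.8%. The shares over all genes include genes that passed the minimum through 1 state alone. *Cd36* was past that size too but under the detection minimum. Nothing is read from these counts about the genes as a group.

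**Figure D5:**
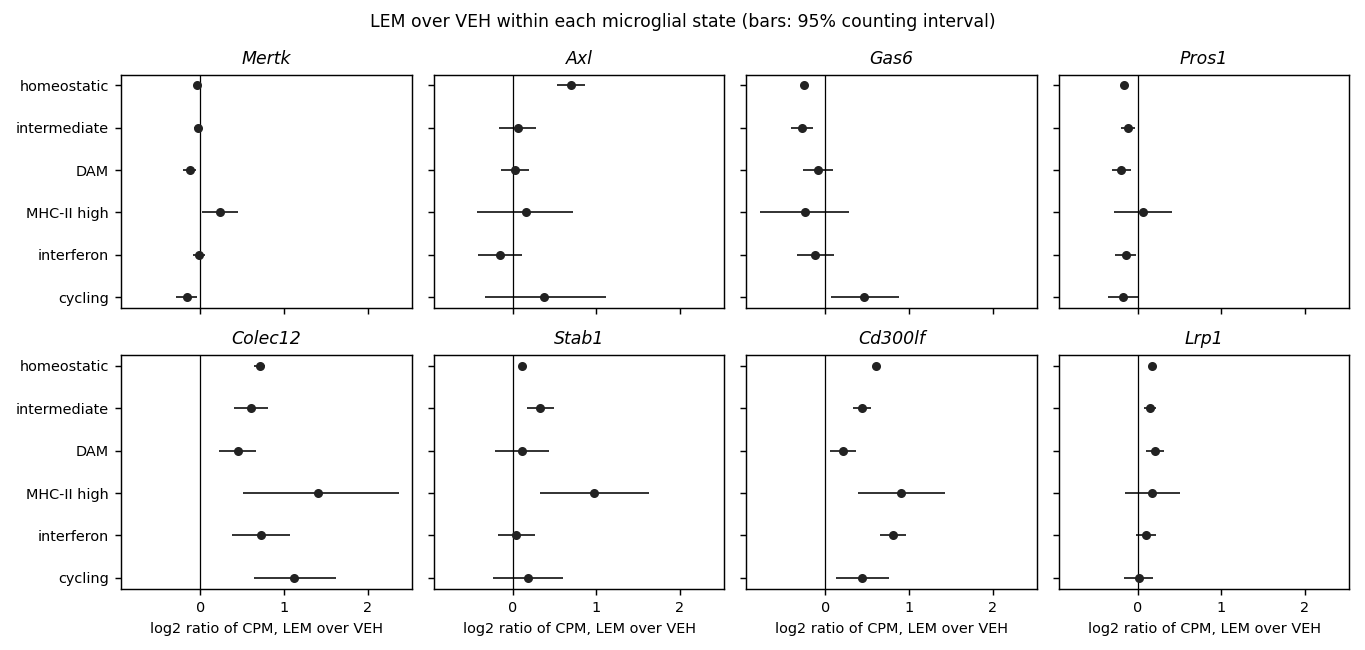
Log2 ratio of CPM, LEM over VEH, of 8 genes within each of 6 microglial states (both sexes), with 95% counting intervals and a line at 0. Colec12 and Cd300lf lie above 0 in each state, and Axl stands off 0 only in homeostatic cells, where its level is 4.12 and 6.68 CPM.

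Genes that work beside these receptors were counted from 5 lists. The counts are to be read beside the shares of all genes given above, 14.1% higher and 9.86% lower in LEM and 7.85% higher and 19.8% lower in DAM-gated cells, and with so few genes to a list nothing is read from them about a list as a whole. Of 10 detected genes for phosphatidylserine and apoptotic cell recognition, 0 were past 0.1 between the libraries, and the integrin subunits *Itgb5* and *Itgb3* were at 0.10 and -0.06. In DAM-gated cells 2 of 10 were higher and 2 lower past 0.5 in both libraries. The higher ones, named after their values were seen, were *Mfge8*, a secreted bridge to phosphatidylserine, at 1.17 and 1.16, and *Trem2*, a lipid receptor, at 0.95 and 0.97. *Cd300a*, a phosphatidylserine-binding inhibitory relative of *Cd300lf*, was lower, at -0.89 and -1.03. Of other scavenger receptors, 1 of 4 was higher in LEM, *Cxcl16*, a scavenger receptor and chemokine, at 0.38 (0.34 to 0.42). In DAM-gated cells 3 of 5 of that list were higher, with the lysosomal *Cd68* at 1.11 and 1.09, *Cxcl16* at 1.31 and 1.16 and the lipoprotein receptor *Scarb1* at 1.26 and 1.37.

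In the LDL receptor family, 1 of 7 was higher in LEM, *Lrp12* at 0.12 (0.06 to 0.18). In DAM-gated cells 1 of these 7 was higher, beside 7.85% of all genes, and 3 were lower, beside 19.8%. The higher one was *Lrpap1*, the chaperone of *Lrp1* and its relatives, at 1.33 and 1.18. The lower ones were *Sort1*, a sorting receptor, at -0.77 and -0.54, and the WNT co-receptors *Lrp5* at -0.76 and -0.88 and *Lrp6* at -0.61 and -0.65. Of the engulfment machinery downstream of the receptors, 0 of 13 were higher and 5 lower in LEM, beside 9.86% of all genes, among them *Elmo2* at -0.23 (-0.30 to -0.17) and *Dock1* at -0.22 (-0.28 to -0.17), 2 parts of the exchange factor that activates Rac. By sex *Elmo2* was at -0.11 in female and -0.29 in male cells, and *Dock1* at -0.35 and -0.09. In DAM-gated cells 4 of 14 of these were lower, beside 19.8% of all genes, and 0 higher. *Abca1*, a lipid exporter, was lower there at -0.92 and -0.87. Of the regulators, the sheddase *Adam10* was lower in LEM at -0.13 (-0.15 to -0.10). In DAM-gated cells *Socs3*, a feedback inhibitor of cytokine signalling, was lower at -1.62 and -1.60.

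The genes whose level ran most like each receptor were sought among 7517 genes over 12 profiles, the 6 microglial states of both libraries. These correlations of log2(CPM + 1) are descriptive, since profiles of a library share its depth and mice. Each is also among the highest of 7517 over only 12 profiles, and how high the best match of unrelated genes would be was not tested. *Axl* ran most like *B2m*, the light chain of MHC class I (Pearson r = 0.97), *Plin2*, a lipid droplet coat (0.95) and *H2-D1* (0.94). *Mertk* ran most like *Twf2*, *Dusp7* and *Txndc11* (0.98 each), and *Stab1* like *Ntpcr*, *Sash3* and *Rreb1* (0.98 each). For *Gas6* the nearest was *Ube2f* (0.97), for *Lrp1* *Cables1* (0.95), for *Pros1* *Fat3* (0.94), for *Colec12* *Vps13c* (0.91) and for *Cd300lf* *Ppan* (0.91). The rarely counted *Cd36* and *Msr1* were nearest to *Lamtor5* and *Ciao2b* (0.95 each).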

How the data were processed

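The authors sorted and pooled the cells, prepared 10x Genomics 5′ libraries, counted UMIs with Cell Ranger 8.0.0 on mm10, named SoupX for free RNA, and filtered cells by genes, counts and mitochondrial share. The authors deposited raw UMI counts, whole numbers without normalization, and whether SoupX's correction is in them is not given in the sources used here. The table holds no cell annotation, so cells were gated on raw marker counts. One DAM marker gene of the planned list was not used here, which leaves 7, and 0 cell columns were left without a sample. Doublets were kept.

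Counts were summed per library, sex and state. Intervals are exact (Poisson, conditional binomial or Clopper-Pearson, 95%). No ratio is given where both sides hold at most 3 counts. The ratio step was tested on simulated data. Named genes are all 10, genes among the 2 highest and 2 lowest detected members of each list by LEM over VEH ratio, and up to 3 genes nearest in profile. *Mfge8*, *Trem2*, *Lrp5* and *Lrp6* are exceptions, named after their values were seen. The genes, lists and gates were chosen with earlier results of these data known. Gene positions are from GENCODE M21. Scripts ran under Python 3.11.15 with scanpy 1.11.5, matplotlib 3.10.9, scipy 1.17.1, pandas 2.3.3 and numpy 2.4.6. Alternatives were other scalings, thinned cells, each sex, other gates, sizes and detection minimums, and cells without likely doublets. Some results on the gene lists are not reported here.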

Additional observations from a re-analysis of the deposited data

Results flagged for a closer look

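The LEM over VEH log2 ratio of *Cd36* had opposite signs in the sexes, 0.16 in female cells (16 counts in VEH and 27 in LEM) and -0.68 in male cells (38 and 30), and both intervals include 0. In DAM-gated cells *Gas6* also had opposite signs, -0.75 (-1.07 to -0.42) among females and 0.30 (0.04 to 0.57) among males, from 153 to 290 counts per group. With 1 pool per treatment, neither difference between the sexes was tested.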

How the results depend on the processing

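No paired analysis was possible because each treatment has 1 library. Past a log2 size of 0.25 the number of genes higher in LEM went from 4 to 2 and the number lower from 2 to 0, and the same held past 0.5. In male cells 1 was lower. Past a log2 size of 1, and with *Axl* counted, the number higher in DAM-gated cells went from 2 to 1 (*Axl*) and the number lower from 2 to 1 (*Stab1*). The other 45 counts of genes stayed within 1.5 times of their value. The share of all genes past 0.1 depends on the detection minimum: it was 21.0% higher and 14.1% lower among genes in at least 1% of cells and 31.2% and 25.2% among genes with over 3 counts. The 40 shares of cells with a count taken after thinning or from at least 2 counts all moved, as fewer counts are read. Among ratios of LEM over VEH past 0.1 over all cells, or with an interval off 0 in homeostatic, intermediate or DAM-gated cells, the sign turned for *Cd36* (0.12 in cells thinned to 2000 counts, 0.16 in female cells) and, in female cells, for *Lrp1* (-0.010 in all, -0.0032 in homeostatic and -0.17 in DAM-gated cells). In male cells they turned for *Colec12* (-0.018 in intermediate and -0.062 in DAM-gated cells) and *Cd300lf* (-0.071 in DAM-gated cells). With gates applied after thinning, which leaves 59 and 85 DAM-gated cells, *Pros1* turned to 0.026 in intermediate cells and *Cd300lf* to -0.17 in DAM-gated cells. Ratios within these 3 states whose interval included 0 also turned, in male cells for *Gas6* (0.30), *Stab1* (-0.16) and *Msr1* (-0.41) in DAM-gated and *Axl* (-0.020) in intermediate cells, in female cells for *Cd36* (1.05 in homeostatic and 0.46 in DAM-gated cells), with gates after thinning for *Axl* (-0.24 in intermediate and -0.36 in DAM-gated cells) and *Msr1* (-0.42 in intermediate cells), and without likely doublets for *Stab1* (-0.027 in DAM-gated cells). In MHC class II high, interferon-gated and cycling cells the ratios were repeated by sex alone. Of these 52 ratios 13 turned, and for 1 of the 13, *Mertk* in female cycling cells (0.20, from -0.16 in both sexes), the interval of both sexes excluded 0. The cause was not tested. The *Colec12* ratio of LEM over VEH ran from 0.23 in male to 2.70 in female cells over 10 alternatives, that of *Cd300lf* from 0.43 to 0.73 and that of *Mertk* from -0.09 to -0.02. Of the alternatives for DAM-gated over homeostatic ratios, 43 lay outside the counting interval and 132 within it. *Axl* ran from 4.72 to 5.32 in VEH and 3.98 to 4.50 in LEM, *Stab1* from -2.43 to -1.68 and, with gates after thinning at the low end, -3.48 to -1.59, *Mertk* from -0.90 to -0.65 and -1.14 to -0.67, *Colec12* from 0.78 to 1.54 and 0.77 to 0.98, and *Cd36* from 3.92 to 4.96 and 4.11 to 5.67. The ranges of *Pros1* (-0.12 to 0.39 and -0.06 to 0.25) and *Msr1* (-0.04 to 1.56 and -0.32 to 1.42) cross 0, as do those of *Gas6* (-0.29 to 0.19) and *Cd300lf* (-0.40 to 0.05) in LEM. Likely doublets were set, after seeing the data, as the 10% of cells with the highest Scrublet score in each library, since the automatic threshold called 0 VEH and 3113 LEM cells. The 61 and 73 counts of *Cd36* leave an interval of -0.72 to 0.31 for its LEM over VEH ratio.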
